A study of Populus trichocarpa with 18 samples.

Results

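SUS1 (Potri.018G063500.v4.1) and SUS2 (Potri.006G136700.v4.1) are the 2 genes described here, out of 11294 genes with a count in the developing wood of Populus trichocarpa, the black cottonwood. Both are treated as xylem sucrose synthase genes; the names come with the choice of the genes, since the deposited tables hold identifiers only. They were chosen by name with their counts in both woods and all regions already known. Their levels and fold changes are therefore given as a description, without a test.

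Sucrose synthase splits sucrose, the sugar that arrives through the phloem, into fructose and UDP-glucose. UDP-glucose is the substrate from which cellulose synthase at the plasma membrane builds cellulose chains, and it is also the start of the path to UDP-xylose for xylan. In poplar, tension wood forms above the pith of leaning stems, and its fibres typically carry an extra inner wall layer that is very rich in cellulose.

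All 18 libraries came from wild-type trees 5 to 12 months old, raised from branch cuttings. Tension wood was formed under 21 days of bending, and normal wood came from debarked stem segments handled in the same way. The sources used here do not give whether the normal stems belonged to unbent trees, nor how the regions are ordered from the cambium inwards. Sections of 16 µm were cut by laser into bands, of which Regions 1, 2 and 3 were sequenced from the transcript ends, and about 1600000 µm2 of each band made up 1 of 3 biological replicates per wood. The labels do not say whether a replicate was 1 tree.

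Depth set how well each gene could be measured. Normal libraries held 6254 to 20080 counts and tension libraries 8982 to 89358. A count of 3, taken as the detection floor, stood for 149 to 480 CPM (counts scaled to a library total of 1000000, over all counts of the library) in normal and for 33.6 to 334 CPM in tension libraries. Each table holds 1 wood, so wood type and any separate preparation, sequencing or counting cannot be told apart. In tissue cut as bands, fewer cells of a type and less RNA per cell cannot be told apart either. As a loose check of the tissue, all 5 identifiers recalled as secondary wall cellulose synthases, which mark xylem cells that are thickening their walls, had counts in both woods. These were 179 in normal and 4629 in tension wood, at unequal depth. As mean shares of all counts, the list took 0.239%, 0.147% and 0.159% in normal Regions 1 to 3. In tension Regions 1 to 3 it took 1.13%, 1.03% and 1.09%. The least counted of the 5 had 5 counts in normal wood, from 3 of the 9 libraries. Markers of other tissues were not analysed here.

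SUS2 was the abundant member of the pair. In tension wood Region 1 it stood at 15307, 14895 and 12988 CPM in replicates 1 to 3, from 1355, 1331 and 847 counts. Region 2 gave 14691, 13886 and 12592 CPM, and Region 3 gave 13020, 12024 and 13504 CPM. These 9 values lay close together: SUS2 took between 1.20% and 1.53% of all counts and ranked 2 or 3 among all genes by count in each of the 9 libraries.

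In normal wood SUS2 took a smaller share of the counts. Region 1 held 17, 18 and 17 counts in replicates 1 to 3, which is 1259, 1573 and 1508 CPM. Region 2 held 27, 10 and 17 counts, or 1345, 1130 and 2289 CPM, and Region 3 held 11, 11 and 8 counts, or 1117, 1368 and 1279 CPM. Its place by count ranged from 57 to 232 in these libraries, which held 1728 to 3197 genes with a count. No normal library reached the lowest tension library: the highest normal value was 2289 CPM and the lowest tension value 12024 CPM, and the exact (Clopper-Pearson) 95% counting interval of the former ended at 3662 CPM where that of the latter began at 9874 CPM. Such intervals cover counting error only.

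SUS1 had fewer counts than SUS2 in both woods. Tension wood Region 1 held 48, 58 and 36 counts in replicates 1 to 3, or 542, 649 and 552 CPM. Region 2 held 13, 26 and 29 counts, or 332, 461 and 736 CPM, and Region 3 held 7, 3 and 6 counts, or 254, 334 and 513 CPM. SUS1 ranked between 212 and 877 by count in tension libraries, far behind SUS2. These libraries held 2658 to 5583 genes with a count.

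In normal wood SUS1 had 27 counts in all 9 libraries together. Region 1 held 3, 8 and 3 counts in replicates 1 to 3, or 222, 699 and 266 CPM. Region 2 held 3, 0 and 5 counts, or 149, 0 and 673 CPM, where the floor of 3 counts stood at 339 CPM and the exact 95% counting interval of 0 counts ended at 417 CPM. Region 3 held 2, 2 and 1 counts, or 203, 249 and 160 CPM, all under the floor of their libraries. With so few counts most single values had wide intervals: the 249 CPM of Region 3 replicate 2 had an exact 95% counting interval from 30.1 to 898 CPM.

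**Figure D1:**
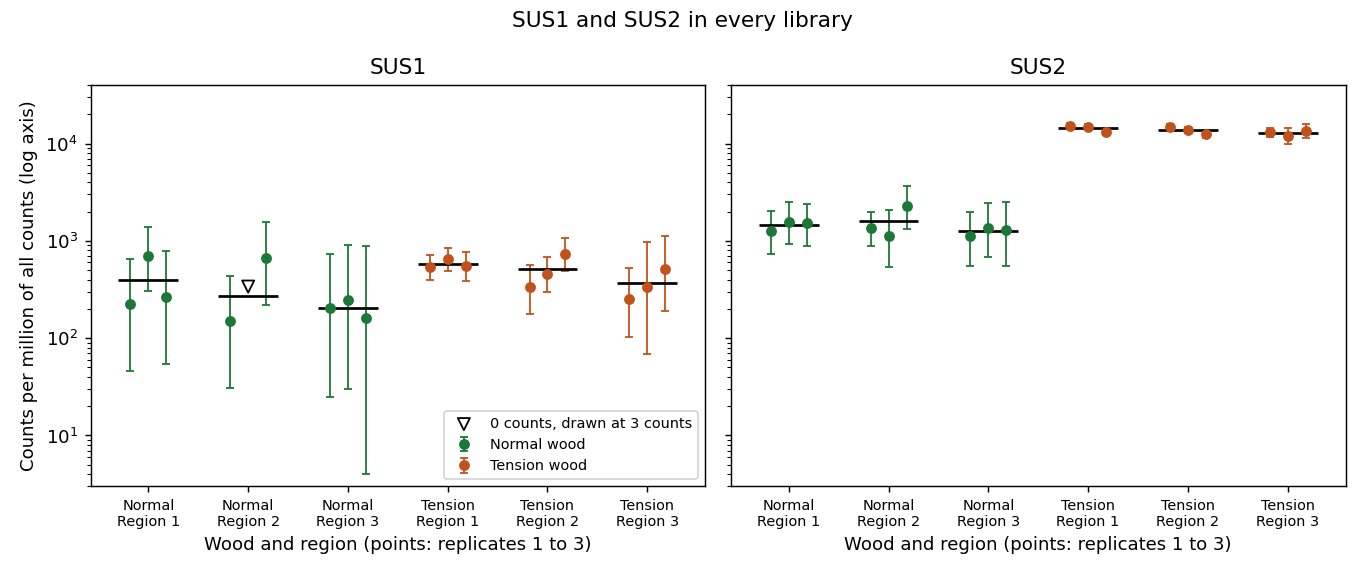
Level of SUS1 (left) and SUS2 (right) in each of the 18 libraries, in CPM of all counts on a log axis; points are libraries in the order of replicates 1 to 3, error bars are exact 95% counting intervals, black lines are group means, and the open triangle marks the library with 0 counts of SUS1 at the level of 3 counts. SUS2 lies between 12024 and 15307 CPM in tension wood and between 1117 and 2289 CPM in normal wood, while the SUS1 values of the woods overlap.

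The mean levels of SUS2 ran in the order tension Region 1 (14397 ± 1237 CPM), tension Region 2 (13723 ± 1059), tension Region 3 (12850 ± 755), normal Region 2 (1588 ± 617), normal Region 1 (1447 ± 166) and normal Region 3 (1255 ± 127; SD, n = 3 for each). Neighbours in this order overlapped within each wood, and the only gap lay between the woods. For SUS1 the order was tension Region 1 (581 ± 59.1 CPM), tension Region 2 (510 ± 206), normal Region 1 (396 ± 264), tension Region 3 (367 ± 133), normal Region 2 (274 ± 354) and normal Region 3 (204 ± 44.4; SD, n = 3 for each). Every pair of neighbours in this order overlapped for SUS1. Groups farther apart in it did not always overlap: tension Region 1 (542 to 649 CPM) lay above tension Region 3 (254 to 513 CPM), and normal Region 3 (160 to 249 CPM) lay below each tension region.

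Setting the woods side by side asks how much of each transcript xylem formed under bending holds. For SUS2 the mean CPM in tension wood was 9.95 times that in normal wood in Region 1, 8.64 times in Region 2 and 10.2 times in Region 3. On counts pooled over the 3 replicates, the ratio was 10.1 in Region 1 (exact 95% counting interval 7.70 to 13.6), 9.25 in Region 2 (7.06 to 12.4) and 10.4 in Region 3 (7.23 to 15.6). The 3 regions gave nearly the same ratio, and their counting intervals overlapped. Leaving out 1 library at a time kept the ratio of means between 7.55 and 11.1.

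For SUS1 the ratio of means was 1.47 in Region 1, 1.86 in Region 2 and 1.80 in Region 3. On pooled counts it was 1.51 (exact 95% counting interval 0.872 to 2.83), 2.29 (1.10 to 5.52) and 1.60 (0.561 to 5.59). The woods overlapped in Regions 1 and 2. In Region 3 the 3 tension libraries lay above the 3 normal ones, but by 254 against 249 CPM at the nearest, from 7 and 2 counts. Single libraries weighed on the value: without normal replicate 2 the Region 1 ratio was 2.38, and without normal replicate 3 the Region 2 ratio was 6.82.

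The size of a fold also rests on how libraries are scaled. In the fit of all genes by edgeR, with TMM factors (a scaling that takes most genes as unchanged) over genes listed in both tables, SUS2 had a log2 fold change of 4.43 (SE 0.24) in Region 1, 4.0 (SE 0.41) in Region 2 and 3.77 (SE 0.31) in Region 3. Scaled by totals of only the genes that passed the filter of the fit, the values were 3.59, 3.54 and 3.67. The log2 ratio of mean CPM on all counts was 3.31, 3.11 and 3.36. SUS1 had 1.68 (SE 0.48) in Region 1 and 1.94 (SE 0.64) in Region 2 by TMM, against 0.85 and 1.51 by totals of the same genes and 0.55 and 0.89 as the log2 ratio of mean CPM. In Region 3 SUS1 had too few counts for the filter of this fit, and so has no value in it. Under each of these 3 scalings both genes were higher in tension wood, SUS1 in Regions 1 and 2 and SUS2 in Regions 1 to 3. The size of the fold moved by more than 1.5 times between scalings in Regions 1 and 2. The TMM fits themselves did not show most genes as unchanged. Between -0.5 and 0 and between 0 and 0.5 on the log2 scale, Region 1 held 29 and 30 of 1037 genes tested. Region 2 held 21 and 24 of 798 there, and Region 3 held 10 and 3 of 217. Folds and p-values that rest on TMM, those of the lists below included, carry this limit.

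The members are set here against all genes tested, of which edgeR called 52.5% higher in tension wood in Region 1, 45.7% in Region 2 and 37.3% in Region 3. The median log2 fold change over the genes tested was 1.37 in Region 1, 0.43 in Region 2 and -1.39 in Region 3. Scaled by totals of the genes tested it was 0.54, -0.02 and -1.48, and by the size factors of DESeq2 1.54, 0.65 and -1.55. SUS2 lay above the median by 3.06, 3.57 and 5.16 on the log2 scale in Regions 1 to 3. Of 1037 genes tested in Region 1, 201 had a larger fold change than SUS2; in Region 2 it was 160 of 798, and in Region 3 34 of 217. SUS1 lay 0.31 above the median in Region 1, where 500 of 1037 genes had a larger fold change, and 1.52 above it in Region 2, where 320 of 798 did. These distances depended on which genes passed the filter and on single libraries. Over all alternatives, leaving out a library included, SUS1 ran from -1.62 to 0.43 around the median in Region 1 and from -0.99 to 3.53 in Region 2, so its side of the median was not fixed. SUS2 ran from 1.34 to 5.58 in Region 1, from 1.30 to 5.45 in Region 2 and from 1.83 to 6.17 in Region 3, above the median throughout. The median itself changed sign: it was -1.26 in Region 1 and -1.29 in Region 2 with libraries thinned to equal totals, and 1.37 in Region 3 without a filter. SUS1 in Regions 1 and 2 and SUS2 in Region 3 lacked 10 counts in at least 1 normal library. They may have passed the filter through their tension counts, which would bear on their place among the genes tested. The cut of 10 counts holds at the median depth and scales with the depth of each library. Which libraries carried SUS1 or SUS2 through it was not worked out.

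**Figure D2:**
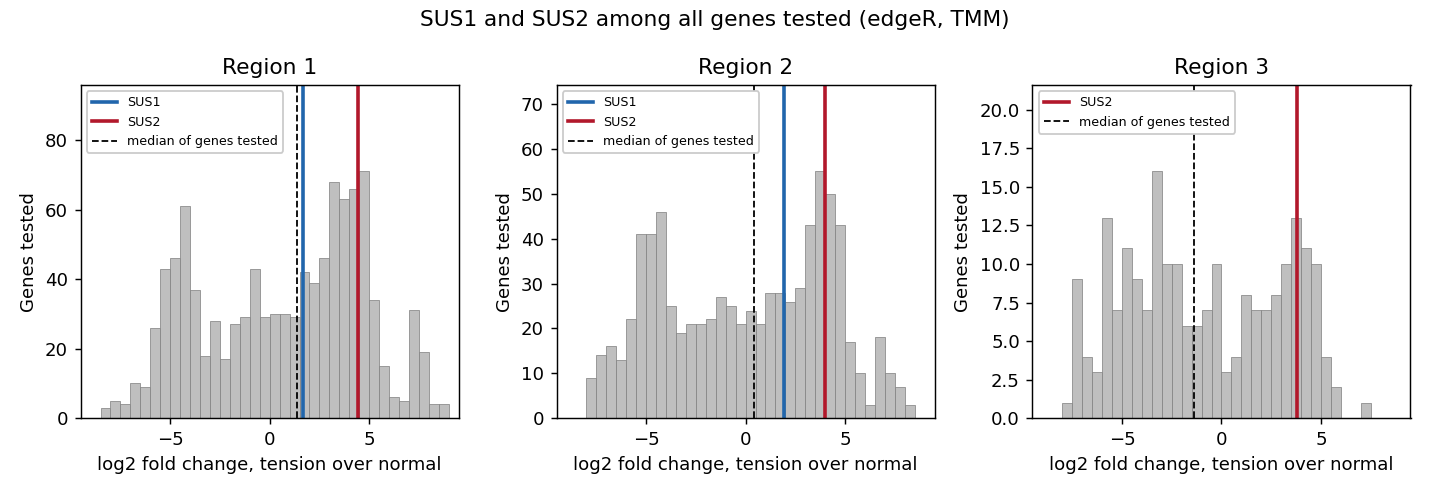
Number of genes (vertical axis) by log2 fold change of tension over normal wood (horizontal axis, bins of 0.5) in the edgeR fits with TMM for Regions 1 to 3; coloured lines mark SUS1 and SUS2, and the dashed line the median of all genes tested. SUS2 lies at 4.43, 4.0 and 3.77, to the right of the median in each panel, and SUS1, shown in Regions 1 and 2, lies at 1.68 and 1.94.

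With the 3 regions of each replicate summed, SUS2 had a log2 fold change of 3.29 (SE 0.32) and SUS1 of 0.91 (SE 0.43), against a median of 1.76 over 1932 genes tested. SUS2 stood 1.53 above that median (1.09 to 4.95 over the alternatives). SUS1 stood 0.85 below it, but from -1.53 to 2.51 over the alternatives, being above it without a filter, after thinning and without any 1 of the tension replicates. The sums weight the regions by depth, and differently in each wood.

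Because both genes are read from the same library, their ratio does not depend on the scaling between libraries. The kit tags the 3′ ends of transcripts, so counts were not divided by gene length. SUS1 made up 3.42%, 4.18% and 4.08% of the counts of both genes in tension Region 1, 2.21%, 3.21% and 5.52% in Region 2 and 1.91%, 2.70% and 3.66% in Region 3, in the order of replicates 1 to 3. In normal wood the share was 15%, 30.8% and 15% in Region 1, 10.0%, 0% and 22.7% in Region 2 and 15.4%, 15.4% and 11.1% in Region 3. All normal libraries but Region 2 replicate 2, with 0 of 10 counts, were above the highest tension library. That exception allows a share of up to 30.8% by its exact 95% binomial interval, so it does not fix the share there. Normal libraries with 1 to 3 counts of SUS1 were not fixed either. Their intervals began at 0.281% to 3.21%, below the 5.52% of the highest tension library. Only normal Region 1 replicate 2 and Region 2 replicate 3 had intervals that began above it, at 14.3% and 7.82%.

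Pooled over libraries, SUS1 gave 226 of the 6239 counts of the pair in tension wood, or 3.62%, and 27 of 163 in normal wood, or 16.6%. SUS2 therefore made up most of the pair in both woods. Both genes together took 1.5% ± 0.13 of all counts in tension Region 1 and 0.184% ± 0.040 in normal Region 1 (SD, n = 3). Close copies of a gene can share sequence at their 3′ ends; the sources used here do not say how such tags were counted, and how far that moves this share was not tested.

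**Figure D3:**
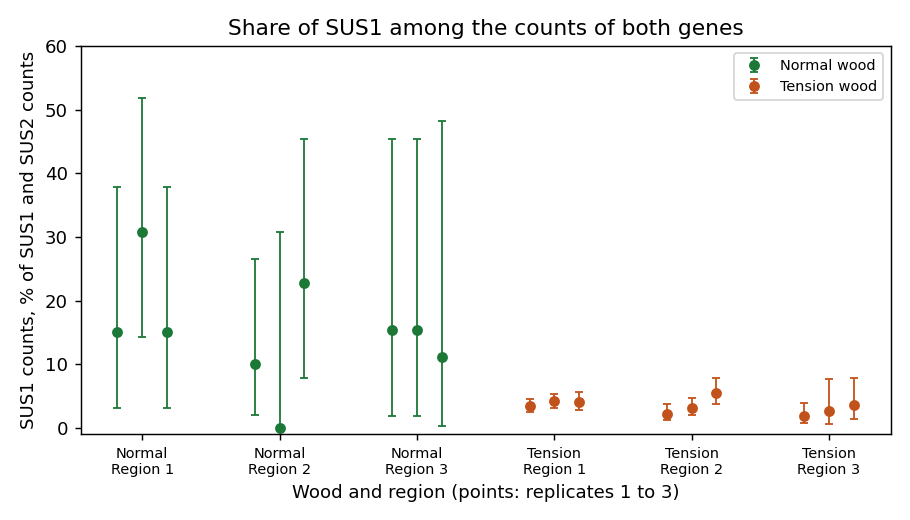
Counts of SUS1 as a percentage of the counts of SUS1 and SUS2 together (vertical axis) in each library, grouped by wood and region along the horizontal axis; points are replicates 1 to 3 and error bars exact 95% binomial intervals. Tension libraries lie between 1.91% and 5.52%, and normal libraries between 10.0% and 30.8% apart from 1 library at 0%.

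Comparisons of regions ask whether expression changes across the developing xylem. In tension wood, SUS2 had a log2 fold change of -0.04 (SE 0.08) in Region 2 against Region 1, -0.14 (SE 0.09) in Region 3 against Region 1 and -0.10 (SE 0.09) in Region 3 against Region 2, with the replicate as a block. Within replicates the CPM of Region 3 was 0.851, 0.807 and 1.04 times that of Region 1, lower in 2 of 3 replicates. Region 2 was at 0.960, 0.932 and 0.970 times Region 1, lower in 3 of 3. These differences are small beside the ratio between the woods: no region of a tension replicate was below 0.807 times another in SUS2.

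SUS1 in tension wood had log2 values of -0.22 (SE 0.30), -0.71 (SE 0.42) and -0.49 (SE 0.44) for the same 3 contrasts. Region 3 was at 0.468, 0.515 and 0.929 times Region 1 in replicates 1 to 3. The CPM of Region 3 (254 to 513) did not overlap that of Region 1 (542 to 649), but rests on 16 counts in all against 142. Of 1171 genes tested, 1093 had a higher log2 fold change than SUS1 in Region 3 against Region 1, and the median of all was -0.01. This place depended on the setting. Without the replicate block 1102 of 1171 genes were higher, without replicate 1 it was 1230 of 1612, and without a filter 5382 of 8878.

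In normal wood, SUS2 had log2 values of 0.05 (SE 0.43) for Region 2 against Region 1, -0.26 (SE 0.45) for Region 3 against Region 1 and -0.31 (SE 0.46) for Region 3 against Region 2. Region 3 was at 0.887, 0.869 and 0.848 times Region 1, from 8 to 18 counts per library. Without replicate 3 the first of these values was -0.20, so it has no settled sign. SUS1 did not reach the filter in normal wood. Its Region 3 CPM was 0.914, 0.356 and 0.601 times that of Region 1, from 1 or 2 counts per Region 3 library, all under the floor.

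Genes of the neighbouring steps were taken from 4 lists of identifiers recalled from published poplar gene models, and their membership was not checked against an annotation. Like the members, the lists were chosen with earlier results of these data known. Their calls and p-values below are therefore a description and not independent evidence. The lists held 5 other sucrose synthases, 1 fructokinase, 2 UDP-glucose pyrophosphorylases and 5 secondary wall cellulose synthases. Of the 5 other sucrose synthases, 1 had counts, namely 2 in 1 tension library, so SUS1 and SUS2 were the only recalled sucrose synthases with more than 2 counts. The rest had no counts in either wood. A level too low for this depth and an identifier recalled wrongly would look the same here, and cannot be told apart.

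Fructokinase phosphorylates the fructose that sucrose synthase releases. The fructokinase list held 46 counts in normal and 559 in tension wood. It rose in Region 1 with a log2 fold change of 1.64 (SE 0.40; edgeR quasi-likelihood test, adjusted p = 0.00016) and in Region 2 with 2.76 (SE 0.45; edgeR adjusted p = 9.5e-07), and was not tested in Region 3. Region 1 overlapped between the woods: 1 normal library, replicate 1, stood at 0.185% of its counts, above the tension libraries at 0.120% to 0.131%. On pooled CPM the ratio was 1.43 in Region 1 (exact 95% counting interval 0.992 to 2.13) and 4.02 in Region 2 (2.24 to 7.92). The Region 1 call was lost when scaled by totals of the genes tested (log2 0.81, edgeR adjusted p = 0.051). It was also lost without normal replicate 2 (log2 0.51, edgeR adjusted p = 0.20) and without normal replicate 3 (log2 0.53, edgeR adjusted p = 0.22).

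UDP-glucose pyrophosphorylase interconverts UDP-glucose and glucose 1-phosphate. Both members of its list rose in Region 1 (edgeR adjusted p = 3.2e-11 and 3.0e-07). Normal Region 1 held only 3 and 2 counts of them, against 315 and 126 in tension wood, so their size is given as ratios of pooled CPM, 15.6 (exact 95% counting interval 5.30 to 76.3) and 9.39 (2.55 to 78.4). Both were also called higher in Region 2 (edgeR adjusted p = 3.2e-09 and 3.6e-06). There the first had 1 count in normal and 180 in tension wood, a ratio of 48.5 (8.59 to 1925). The second had 0 and 60 counts, at least 5.39-fold higher against a floor of 3 counts over the group. With so few normal counts, both reached the Region 2 test through their tension counts, which favours a higher call. Their Region 2 p-values carry this limit. The list held 756 counts in tension and 8 in normal wood, and neither member reached the filter in Region 3. Its share of counts was 0.182% ± 0.029 in tension and 0.0133% ± 0.0077 in normal Region 1 (SD, n = 3).

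Cellulose synthases use the UDP-glucose. In Region 1 all 5 of the list rose (median 3.15 on the log2 scale); the most counted of them rose by 4.55 (SE 0.31; edgeR adjusted p = 3.4e-20) and the least changed by 1.53 (SE 0.35; edgeR adjusted p = 4.8e-05). In Region 2 all 4 tested rose (median 3.77) and in Region 3 both tested. The Region 3 log2 fold change of the most counted member was 3.95 (SE 0.39; edgeR adjusted p = 6.7e-07). The other had 3 counts in normal Region 3 and 89 in tension wood, a ratio of pooled CPM of 14.8 (exact 95% counting interval 4.92 to 73.3; edgeR adjusted p = 3.7e-05). The log2 fold change of SUS2 lay inside the range of this list in Regions 1 and 2. In Region 3, at 3.77 (SE 0.31), SUS2 lay below both tested members, at 3.95 and 4.41. In Region 1 the ratio of pooled CPM was 10.96 (7.15 to 17.8) for the most counted member and 1.33 (0.972 to 1.87) for the least changed one. Without normal replicate 2 the least changed member was not called in Region 1 (log2 0.49; edgeR adjusted p = 0.17).

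Over the 4 lists, 8 of 8 tested genes were called higher in Region 1, 7 of 7 in Region 2, 2 of 2 in Region 3 and 8 of 8 in the summed data. Over all genes tested, edgeR called 52.5%, 45.7%, 37.3% and 56.1% higher in these comparisons. The lists were chosen with earlier results of these data known, so no conclusion is drawn from this difference. In the summed data the list count was 6 of 8 without normal replicate 2 and 6 of 8 without normal replicate 3, where the fructokinase and 1 cellulose synthase were not called. No list gene had 10 counts in each of the 3 normal libraries of any region. A list gene may thus have reached the test through its tension counts, which would favour a higher call. In Region 2 this did hold for both UDP-glucose pyrophosphorylases, with 1 and 0 normal counts. For the other list genes and regions it was not worked out, since the cut scales with depth. SUS2 did have 10 counts in each normal library of Regions 1 and 2, but not of Region 3, and SUS1 in none of the regions.

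**Figure D4:**
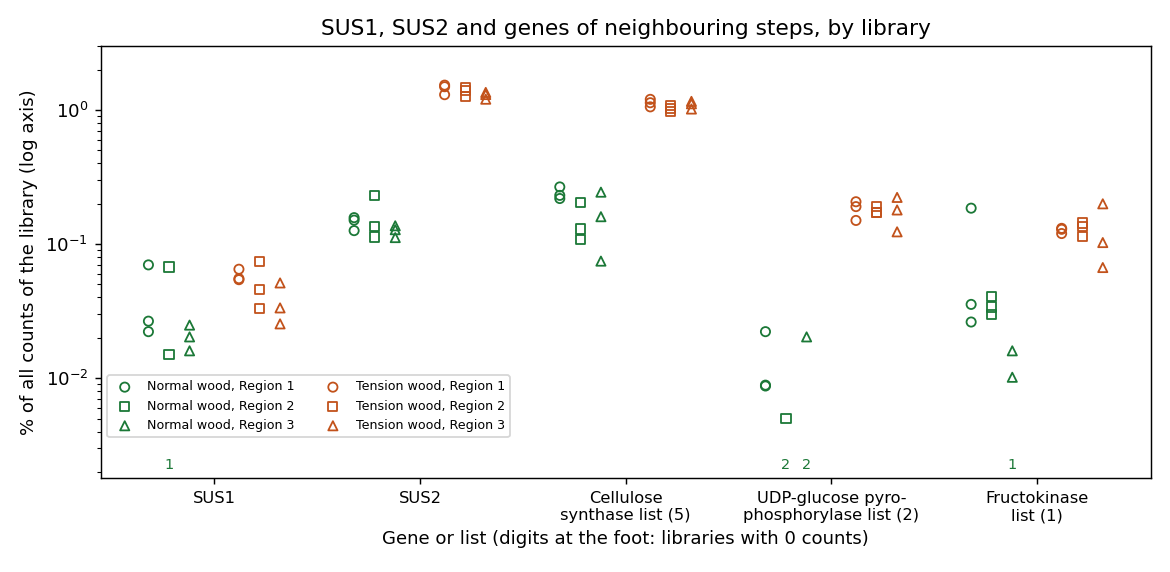
Percentage of all counts of a library (vertical axis, log scale) taken by SUS1, SUS2 and 3 recalled lists (number of identifiers in brackets); each symbol is 1 library, with its shape giving the region and its colour the wood, and digits at the foot count libraries with 0 counts. SUS2 took 1.20% to 1.53% in tension wood, more than the 5 cellulose synthases together in each tension library, and 0.112% to 0.229% in normal wood.

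SUS2 was also set against the cellulose synthase list within each library. It had 1.04 to 1.51 counts per count of the list in tension libraries, with a median of 1.28. Normal libraries gave 0.458 to 2.13 with a median of 0.72, from 6 to 36 counts of the list. These ranges overlapped over all regions. In Region 1 they did not: the 3 normal libraries lay at 0.472 to 0.72 and the 3 tension libraries at 1.08 to 1.45. In Regions 2 and 3 the woods overlapped, with normal libraries at 0.556 to 2.13 and 0.458 to 1.83.

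Between regions, edgeR called 0 of the 8 tested list genes in each of the 3 contrasts of tension wood, against 0.171%, 0.342% and 0% of all genes for Region 2 against 1, 3 against 1 and 3 against 2. None of the 8 had an unadjusted edgeR p under 0.05 in these contrasts, and DESeq2 called 0. In normal wood the 1 tested list gene, a cellulose synthase, was not called in any contrast, against 0%, 0.314% and 0% of all genes. Its log2 fold change was -1.23 (SE 0.61) in Region 2 against Region 1, with an unadjusted edgeR p under 0.05 and an adjusted p = 0.83, and DESeq2 called 0.

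The genes most like each member in pattern were sought among 480 other genes with at least 200 counts in all, by Pearson correlation of log2(CPM + 50) over the 18 libraries. For SUS2 the nearest was Potri.015G091400.v4.1, with r = 0.983 over 18 libraries and 0.38 within the 9 tension libraries. Of the 480 genes, 134 had r over 0.9 with SUS2, and the median was 0.777. For SUS1 the nearest was Potri.001G320400.v4.1, with r = 0.845 over 18 and 0.50 within the 9 tension libraries. Between SUS1 and SUS2 themselves r was 0.567 over 18 libraries, 0.19 over the 9 tension and 0.738 over the 9 normal libraries. SUS2 was at place 59 among the genes most like SUS1, and SUS1 at place 291 among those most like SUS2. All these values share wood, table and depth across libraries, and in SUS1 they rest on few counts.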

How the data were processed

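The deposited values are whole-number counts, with 1 table for each wood and 1 column for each library. The submitters' processing notes name featureCounts, STAR and UMI-tools; their versions and settings, the genome build and the handling of duplicates are not stated in the sources used here. The kit was the QIAseq UPX 3′ kit, per the labels' protocols. Genes without a count are absent from a table (smallest row sum 1), so a missing gene was set to 0 where both tables were joined; 4347 genes are in both. Every column matched a labelled sample (0 unused).

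Fits used edgeR 4.0.16 in R 4.3.3: TMM, filterByExpr at a minimum count of 10, the quasi-likelihood F test and Benjamini-Hochberg adjusted p under 0.05 over all genes tested. Tension and normal wood were compared per region over 6 libraries without a block, and on sums per replicate, among genes in both tables. Regions were compared within a wood over 9 libraries with the replicate number as a block, since labels tie 3 regions to 1 biological replicate; deviations of same-numbered libraries correlated weakly across genes (median 0.07 in normal and -0.02 in tension wood). The SE of a fold is its size over the root of F. The p-values measure the spread between replicates, whose source the labels do not give. Alternatives included DESeq2 1.42.0. Ratios of pooled counts carry exact (Clopper-Pearson) intervals.

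The members and lists were chosen with earlier results of these data known. Of 14 lists, 10 needed gene descriptions; the reference table matched 0 identifiers, so these lists and any sequences are not used here. The remaining 4 hold 13 recalled identifiers, 9 of them in either table. Named are the members, list genes that passed the test (by list) and the gene most like each member.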

Additional observations from a re-analysis of the deposited data

How the results depend on the processing

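Each log2 fold change of tension over normal wood kept its sign under all alternatives run, as did the tension region values, and no called direction turned; SUS2 in normal wood, Region 2 against 1, turned only without replicate 3. With DESeq2, SUS2 was 4.60 in Region 1, 3.64 in Region 3 and 3.52 summed. Scaled by totals of the genes tested, SUS1 in Region 1 was 0.85, and SUS2 was 3.59 in Region 1 and 3.54 in Region 2. At a minimum count of 3, SUS1 in Region 1 was 1.00, SUS2 was 3.74 in Region 1, 3.42 in Region 3 and 3.12 summed, its tension values for Region 3 against 1 and against 2 were -0.27 and -0.20, and 6 of 7 list genes tested were called in Region 3 (294 of 742 genes overall). Without a filter, SUS2 was 3.15 in Region 2, 3.19 in Region 3 and 3.69 summed, its tension values for Region 2 against 1, 3 against 1 and 3 against 2 were -0.18, -0.43 and -0.25, and 5 of 8 list genes were called in Region 3 (466 of 3729 overall). In 1 fit of all 18 libraries, SUS2 was 5.40, 4.76 and 4.18 in Regions 1 to 3, and 6 of 6 list genes tested were called in Region 3 (200 of 573 overall). With genes of either table, SUS2 was 3.05 summed. Thinned to the smallest total, SUS2 was 3.73, 3.21 and 3.30 in Regions 1 to 3 and 3.75 summed, and 4 of 6, 4 of 4 and 1 of 1 list genes tested were called (111 of 315, 57 of 159 and 42 of 107 overall); SUS1 did not reach the filter in any region.

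Leaving out 1 library at a time gave SUS1 0.75 to 1.65 in Region 1, 1.25 to 2.70 in Region 2 (1.94 as reported; the ends are without normal replicates 2 and 3) and 0.45 to 1.49 summed; without a filter it was 1.11 in Region 2. SUS2 ran from 3.71 to 5.28 in Region 1, 3.58 to 4.28 in Region 2, 3.42 to 4.94 in Region 3 and 2.83 to 3.99 summed. In tension wood SUS2 ran from -0.31 to -0.070 for Region 3 against 1 and from -0.21 to -0.065 for Region 3 against 2, the lower end without replicate 3. The list count in Region 3 ran from 2 of 2 tested to 5 of 5. These fits held different genes: in Region 1, 1792 to 1799 without a normal library and 478 to 484 without a tension library, against 1037. Over all alternatives the genes called higher ran from 111 to 1706 in Region 1 (544 as reported), 57 to 1196 in Region 2 (365), 42 to 466 in Region 3 (81) and 302 to 1673 summed (1083).

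Deviations of same-numbered tension and normal libraries had correlations of -0.10 to 0.12. Regions that the labels tie to 1 replicate gave values about as weak, -0.05 to 0.08 in tension and -0.02 to 0.15 in normal wood. The measure therefore cannot decide whether the numbers pair the woods, and the labels do not say. With the replicate block, SUS1 was 1.72 in Region 1, 1.97 in Region 2 and 0.91 summed, and SUS2 4.42, 4.04, 3.78 and 3.30; no list call changed.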
